A study of Brassica oleracea with 107 samples.

Results

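The genes described here are the 150 whose transcript level differed most between the oldest and the youngest embryos of Brassica oleracea seed kept at 16 °C. They were chosen by the log2(TPM + 1) difference of day 22 minus day 0 at 16 °C, as the 150 with the largest difference among the 13120 genes of the authors' embryo table. TPM is a transcript abundance per gene length, scaled so that all genes of a library sum to 1000000. In maturing seeds of the crucifer family the embryo stops dividing, fills its cotyledons with storage protein and oil, and then accumulates late embryogenesis abundant proteins, small heat shock proteins and protective sugars before it dries. Abscisic acid and a network of embryo transcription factors drive this programme in Arabidopsis thaliana. The seed then enters dormancy, and the transcripts stored at maturity are broken down after it takes up water. No gene names stand beside the identifiers in the deposited tables, and of their 19732 identifiers 0 were found among the 53125 entries of a reference annotation. The genes are therefore given by identifier alone, and which of the processes above they serve is not known from these data.

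Brassica oleracea, which includes cabbage and kale, was raised at 21 °C up to bolting and then kept at 16 °C while embryos grew to the bent-cotyledon stage, per the labels' protocols. From then on plants stayed at 16 °C (cool), were moved to 26 °C (warm), or, as a recovery group, were moved to 26 °C and later back to 16 °C on a day that the sources used here do not give. The labels name no cultivar, genotype or transgene, and they do not say from which event days or hours are counted. Embryo groups were day 0 at 16 °C, days 1, 3, 7, 15, 18 and 22 at both temperatures, and recovery on days 18 and 22. What is called endosperm here was the rest of the dissected seed, seed coat included; it was sampled in the same groups, and an hour series (hours 1, 24 and 72) covered both temperatures. Of the 107 libraries, 45 were of embryo and 62 of endosperm, with 3 libraries in each of the 36 groups apart from the cool endosperm fraction of day 18 with 2. Each table gives 1 column per group, so no value below has an SD or a replicate check, no test was possible, and every difference is one between single columns. Depth is unknown from TPM. Libraries of the endosperm fraction of days 7, 15, 18 and 22 were made with another kit (Ovation) than all others, so days 0 to 3 and days 7 to 22 were not compared in that tissue. Because no identifier is named, neither tissue label could be checked against marker genes. In the endosperm fraction of day 18 the columns labelled 26 °C and recovery stand in the opposite order to embryo for these genes, so results that rest on them are given by label.

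By their choice, all 150 genes were far higher on day 22 than on day 0 at 16 °C, with log2 differences of 4.31 to 11.21 and a median of 5.55. These values chose the genes and are a description. Over the 11899 embryo genes that reached 1 TPM in any column, as all 150 did, the median difference was -0.90, and 10.8% were at least 2-fold higher on day 22 and 47% lower. On day 0 the 150 genes were scarce: 83 were under 1 TPM, 18 of these were listed at 0, and only 3 reached 100 TPM. On day 22, 88 were at 100 TPM or more and 27 at 1000 TPM or more. The largest gain was that of Bo1g086230, from 0.044 to 2465 TPM, followed by Bo1g058990, listed at 0 and at 1647 TPM. Just inside the limit stood Bo8g030950 (0.66 and 32.0 TPM, a log2 difference of 4.31) and Bo3g004000 (5.96 and 136.7 TPM, also 4.31). Just outside it stood Bo4g163690 (23.7 and 486 TPM, 4.30) and Bo4g034870 (1.79 and 53.4 TPM, 4.29). The limit therefore falls in a continuous run of values.

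Of the 150 genes, 30 (20%) carried identifiers that begin with Bo3g, against 15.9% of all listed embryo genes, and 22 (14.7%) began with Bo8g, against 10.4%. Those that begin with Bo7g numbered 6 (4.0%), against 10.2% of the listed genes. No coordinates are given with the identifiers, and these shares are a description. Consecutive identifiers occurred in 3 pairs, which were looked up after the values had been seen. Bo1g107090, Bo1g107100 and Bo1g107110 form a run of 3, at 683, 10582 and 14153 TPM on day 22 at 16 °C. On day 0 the first was at 0.045 TPM and the others at 31.4 and 43.1 TPM. Bo6g050850 and Bo6g050860 had nearly equal values, both listed at 0 on day 0, then 81.1 and 89.5 TPM by day 22. No source used here says how reads that match near-identical copies were counted, so values of neighbouring genes with similar sequence may not be separate measurements.

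The level of the 150 genes at 16 °C was followed through the columns that the choice did not use. Their median was 0.70 TPM on day 0, 0.79 TPM on day 1, 1.25 TPM on day 3 and 3.81 TPM on day 7. It was 35.8 TPM on day 15, 61.4 TPM on day 18 and 147 TPM on day 22. The step from day 7 to day 15 was common to nearly all of them: 148 of 150 were at least 2-fold higher on day 15, where 5.88% of all tested genes were higher and 7.32% lower, and the other 2 were also above their day 7 value. That interval is also the longest, at 8 days. Between neighbouring earlier days, 3 genes were 2-fold higher on day 1 than on day 0 (0.0924% of all tested) and 1 lower (0.42%), and 39 were higher on day 3 than on day 1 (1%) and 1 lower (2.12%). On day 7, 51 were higher than on day 3 (0.555%) and none lower (2.67%). Between days 15 and 18 the number was 26 (0.479%), and 2 genes were 2-fold lower, where 2.55% of all tested genes were. Between days 18 and 22, 83 genes were 2-fold higher (3.96% of all tested) and none lower (2.73%), a step whose later column also chose the genes. At 16 °C the highest column was day 22 for 146 genes and day 18 for 4.

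**Figure D1:**
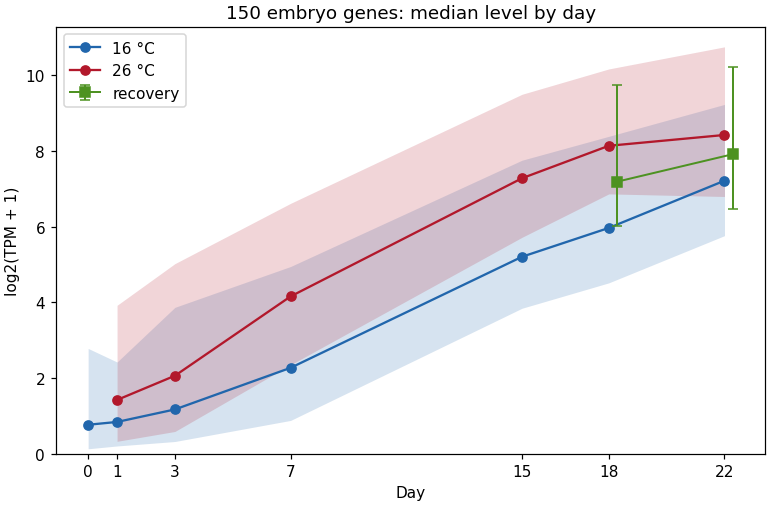
Median log2(TPM + 1) of the 150 genes against day in embryo at 16 °C (blue), at 26 °C (red) and in recovery (green); bands and bars span the quartiles over genes, not over plants. The median at 26 °C lies above that at 16 °C on all 6 shared days, and recovery lies between them on days 18 and 22.

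**Figure D2:**
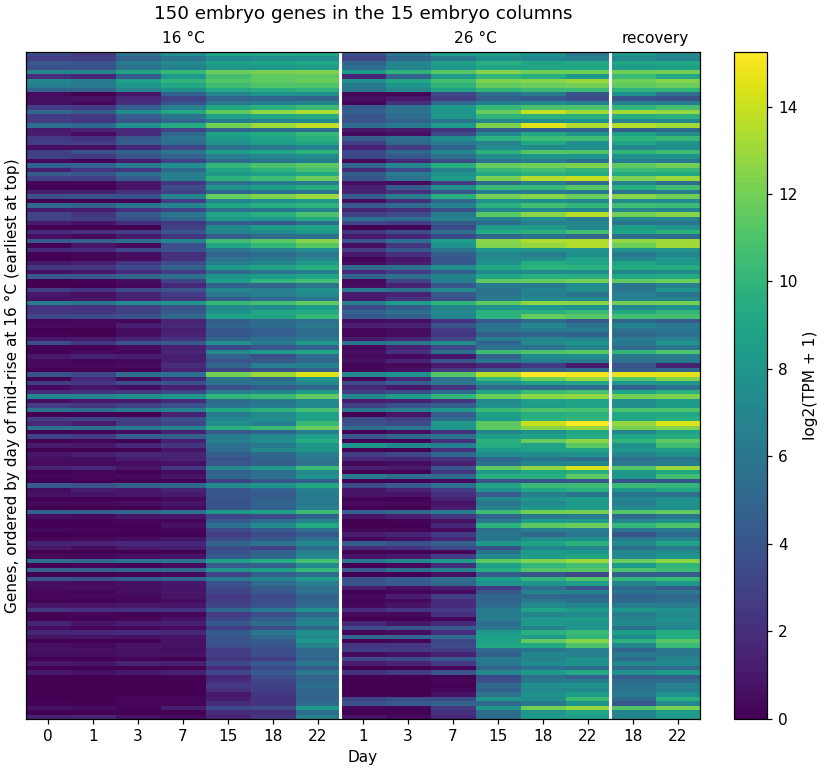
Level of each of the 150 genes, as log2(TPM + 1), in the 15 embryo columns, with genes ordered by the day of mid-rise at 16 °C. Most genes pass from dark to light between days 7 and 15 at 16 °C, and 75 of the 150 are past their midpoint on this log2 scale on day 7 at 26 °C.

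The genes were ordered by mid-rise, the day at which the straight lines joining the 16 °C columns pass the midpoint between days 0 and 22 on the log2(TPM + 1) scale. The median day of mid-rise was 11.6, with quartiles of 9.76 and 13.6 and a range of 3.64 to 19.6. Mid-rise came by day 7 in 13 genes, between days 7 and 15 in 115, between days 15 and 18 in 16 and between days 18 and 22 in 6. With the midpoint taken on the linear TPM scale the median day was 18.3, and 80 genes had their mid-rise between days 18 and 22, so the order in time depends on the scale.

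The 13 early genes already had medians of 51.4 and 159 TPM on days 3 and 7, and medians of 503, 579 and 534 TPM on days 15, 18 and 22. Bo7g072760, the most abundant of them on day 22, was at 130, 118, 478, 1115, 3452, 4361 and 4928 TPM on days 0, 1, 3, 7, 15, 18 and 22. Bo3g044300 was at 139, 77.7, 388, 965, 2323, 2825 and 3556 TPM on the same days. Both were above 100 TPM on day 0, where all but 3 of the 150 genes were lower, and neither was flat after day 15.

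Among the 115 genes of the middle group, Bo2g086460 had the highest level of all 150 on day 22. It was at 14.8, 8.44, 44.1 and 45.6 TPM on days 0, 1, 3 and 7, and at 4330, 7840 and 22122 TPM on days 15, 18 and 22. Bo1g107110 was at 43.1, 35.7, 206 and 666 TPM on days 0, 1, 3 and 7, and at 4132, 8333 and 14153 TPM on days 15, 18 and 22. The first was about level between days 3 and 7, while the second was already several times above its starting level on day 3.

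The later groups were at low levels through day 7. The 16 genes with a mid-rise between days 15 and 18 had medians of 0.53 TPM on day 7, 5.80 TPM on day 15, 11.9 TPM on day 18 and 40.5 TPM on day 22. Bo4g013130 was at no more than 0.67 TPM through day 7 and at 15, 19.1 and 261 TPM on days 15, 18 and 22. Bo5g095740 was between 1.93 and 2.45 TPM through day 7 and at 21.5, 63.4 and 192 TPM thereafter. The 6 latest genes had medians of 0.14, 2.25, 4.07 and 42.3 TPM on days 7, 15, 18 and 22. Over days 15, 18 and 22, Bo3g035510 was at 8.83, 10.6 and 291 TPM. Bo4g187850 was at 1.70, 3.96 and 100.2 TPM. In TPM, most of the gain of these named genes lay in the last 4 days sampled.

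Embryos at 26 °C were set against those at 16 °C on the same day, which asks whether warmth alters the level of these genes. On day 1, 38 of the 150 genes were at least 2-fold higher at 26 °C (9.26% of all tested genes were) and 3 lower (3.93%). The median log2 difference was 0.24, against 0.07 over all tested genes. On that day 63 of the 150 were under 1 TPM at 26 °C and 82 at 16 °C. On day 3, 42 were higher (5.43% of all tested) and 5 lower (0.79%), with a median of 0.35 against 0.12. In these bulk samples a lower share of a cell type cannot be told apart from less RNA of a gene per cell.

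A pair of genes had a large difference from the first day at 26 °C. Bo3g044590 was at 221 TPM in the warm and 1.02 TPM in the cool on day 1; the warm and cool values were 125 and 2.23 TPM by day 3, then 95.8 and 3.99 TPM. Bo1g039850 had warm values of 78.2, 42.3 and 41.0 TPM on days 1, 3 and 7, against cool values of 0.17, 0.23 and 0.78 TPM. Both were thus higher on day 1 at 26 °C than on the next 2 sampled days, and both were higher again late, at 2709 and 2745 TPM on day 22 at 26 °C. At 16 °C the same genes reached 244 and 208 TPM on day 22. The opposite order was seen in the neighbours Bo1g107100, at 55.2 TPM in the warm and 167 TPM in the cool on day 3, and Bo1g107110, at 72.1 and 206 TPM. On day 1 the lowest ratios among genes at 5 TPM or more were those of Bo9g022050, at 13.3 and 26.0 TPM, and Bo2g050740, at 8.80 and 14.4 TPM, neither of which reached 2-fold.

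On day 7 the difference extended to most of the genes. The number at least 2-fold higher at 26 °C was 93 (8.6% of all tested genes) and the number lower was 4 (2.13%). The median log2 difference was 1.29, against 0.06 over all tested genes, and 136 of 150 were above 0. Bo2g086460 was at 2434 TPM in the warm and 45.6 TPM in the cool, and Bo4g190800 at 276 and 8.67 TPM. Lower at 26 °C were Bo1g144490, at 10.7 against 32.9 TPM, and Bo2g120860, at 8.70 against 26.1 TPM.

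Days 15 and 18 showed the same direction with larger sizes. On day 15, 106 genes were higher at 26 °C (10.4% of all tested) and 6 lower (14.4%), with a median log2 difference of 1.72 against -0.18 over all tested genes. On day 18, 110 were higher (14.1%) and 4 lower (18.8%), with a median of 2.15 against -0.15. Bo1g050780 was at 251 TPM in the warm and 1.35 TPM in the cool on day 15, and Bo3g130430 at 533 and 11.8 TPM. On day 18 Bo3g035510, one of the latest genes at 16 °C, was at 4092 TPM in the warm and 10.6 TPM in the cool, and Bo4g190800 at 15956 and 93.9 TPM. In all, 66 of the 150 genes were 2-fold higher at 26 °C on each of days 7, 15 and 18. Another 14 were 2-fold higher on none of days 1 to 18. Over all tested genes these joint counts were not made, but the first share cannot exceed the 8.6% of day 7.

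On day 22 the temperature difference was smaller. At 26 °C 83 genes were higher (26% of all tested) and 16 lower (15%), with a median log2 difference of 1.13 against -0.0019 over all tested genes. The 16 °C column of this day also chose the genes, which favours high 16 °C values, so these numbers are a description only. Bo1g050780 was at 1342 TPM in the warm and 27.7 TPM in the cool, and Bo4g190800 was at 36369 and 1267 TPM. The latter had the highest single level of the 150 genes at 26 °C on that day.

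The steps between neighbouring days at 26 °C were counted in the same way as at 16 °C. From day 1 to day 3, 41 genes were 2-fold higher (1.02% of all tested) and none lower (2.81%). From day 3 to day 7, 114 were higher (3.08%) and none lower (12.4%), where 51 were at 16 °C. From day 7 to day 15, 138 were higher (8.38%) and 2 lower (23.4%), with a median log2 difference of 2.90, so that this step took in the most genes at both temperatures. From day 15 to day 18, 64 were higher (5.55%) and none lower (8.96%). From day 18 to day 22 the warm embryo had 17 higher (12.4%) and 12 lower (4.29%), so that increases were fewest in the last interval. The interaction of step and temperature was not tested.

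**Figure D3:**
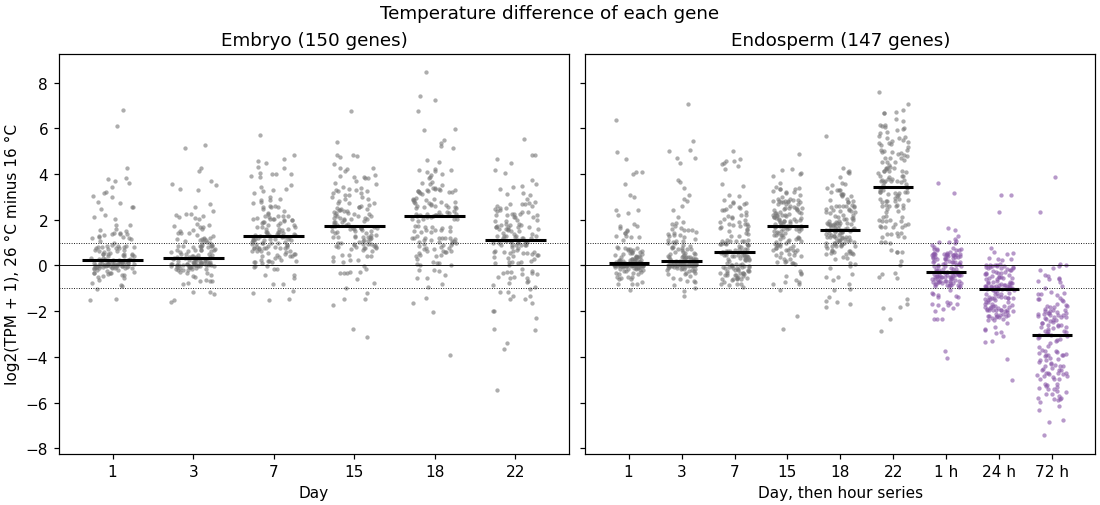
Difference of log2(TPM + 1) at 26 °C minus 16 °C for each gene by day in embryo (left, 150 genes) and by day and hour in the endosperm fraction (right, 147 genes); black bars are medians and dotted lines mark 2-fold. In embryo the medians go from 0.24 on day 1 to 2.15 on day 18; in the endosperm fraction they are above 0 on all 6 days and below 0 at all 3 hours.

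The mid-rise levels of the 16 °C course were also passed earlier at 26 °C. The number of genes above their own midpoint at 26 °C was 11, 13, 75 and 147 on days 1, 3, 7 and 15. With the midpoint on the linear TPM scale the first 3 counts were 1, 1 and 9, and the last was 127. At 16 °C the number above the log2 midpoint was 0, 0, 13 and 128 on the same days, and 143 on day 18. Along the 26 °C columns, started from the shared day 0 column, the median day of passing the midpoint was 6.92, against 11.6 at 16 °C. For 141 genes this was earlier at 26 °C, for 8 later, and 1 gene never passed it. These midpoint counts were not made over all tested genes, so whether an earlier passage is particular to these genes is not known. The median lead was 4.06 days, with quartiles of 2.68 and 5.96. It was 1.54 days in the 13 early genes, 3.95 days in the 115 of the middle group, 5.96 days in the 16 later ones and 9.58 days in the 6 latest, but the later a gene's mid-rise at 16 °C, the longer a lead it can have. The 16 °C columns of days 0 and 22 set the midpoint, and the days between columns are interpolated.

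The highest levels at the 2 temperatures were set side by side as a description, since the 16 °C maximum was the day 22 column, which chose the genes, for 146 of 150. On day 15 at 26 °C, 77 of the 150 genes were at or above their own 16 °C level of day 22, a share of 51.3% against 56.6% of all tested genes. On day 18 at 26 °C 124 were, which is 82.7% against 42.8%. The highest 26 °C value of a gene was a median of 2.31 times its highest 16 °C value, with quartiles of 1.40 and 4.36, against a median of 1.17 over all tested genes with a 16 °C value above 0. The ratio was 2 or more in 88 genes (24.4% of all tested) and under 1 in 22 (40.4%). Of the 15 embryo columns, a 26 °C column was the highest for 125 genes (54.6% of all tested), a 16 °C column for 19 (39.7%) and a recovery column for 6 (5.66%). Bo4g025460 was at 1324 TPM on day 22 at 16 °C, and at 2838, 6693 and 21713 TPM on days 15, 18 and 22 at 26 °C.

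A smaller set of the genes was lower at 26 °C. Bo3g081430 was at 2.76, 27.8, 89.8 and 94.0 TPM on days 7, 15, 18 and 22 at 16 °C, and at 1.16, 2.27, 5.09 and 1.16 TPM at 26 °C. It is the gene that never passed its midpoint at 26 °C. Bo9g045410 was at 285, 1627, 2948 and 2997 TPM at 16 °C on these days and at 328, 1064, 716 and 281 TPM at 26 °C. It was thus level with 16 °C on day 7 and more than 10 times lower on day 22. Bo2g120860 was at 26.1, 116, 225 and 201 TPM at 16 °C and at 8.70, 41.4, 71.7 and 14.9 TPM at 26 °C. At 26 °C, 15 of the 150 genes ended day 22 at least 2-fold below the higher of days 15 and 18. Of these, 12 were also among the 16 genes 2-fold under 16 °C on day 22. Both counts use the 26 °C column of day 22, so part of this overlap is built in. The share of all tested genes that fell in this way was not counted. Bo8g105070 stood apart in its course, at 59.8, 65.3, 190, 29.4, 149 and 266 TPM on days 1 to 22 at 26 °C, against 4.57, 14.2, 18.1, 205, 79.3 and 314 TPM at 16 °C. It was above 16 °C on days 1, 3 and 7, about 7 times lower on day 15, and above it again on day 18.

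Recovery embryos were compared with both temperatures, which asks how far the genes stood from each after the return to 16 °C. On day 18, 2 genes were 2-fold higher in recovery than at 26 °C (2.16% of all tested) and 37 lower (3.66%), and 136 of 150 were below their 26 °C value. The median log2 difference was -0.63, against 0.00 over all tested genes. Against 16 °C on that day, 95 were higher in recovery (6.87%) and 3 lower (10.3%), with a median of 1.51. On day 22, 4 were higher than at 26 °C (2.67%) and 8 lower (1.09%), with a median of -0.40, and 116 were below their 26 °C value. Against 16 °C on day 22, 55 were higher (18.4%) and 14 lower (9.17%), with a median of 0.73. These comparisons share columns with each other, and the last shares the column that chose the genes.

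Most of the genes lay between the 2 constant temperatures after recovery. Of the 110 genes that were 2-fold higher at 26 °C on day 18, 108 lay between their 16 °C and 26 °C values, at a median of 0.69 of the log2 distance from 16 °C to 26 °C. Of the 83 such genes on day 22, all 83 lay between, at a median of 0.68. Over all tested genes that met the same condition, 95.4% lay between on day 18, at a median of 0.61, and 90.5% on day 22, at a median of 0.76, so lying between was common to most such genes. Bo3g130430 had 16.2 TPM in the cool, 611 TPM in the warm and 116 TPM in recovery on day 18; for day 22 these were 112, 2026 and 1254 TPM. Bo1g050780 was at 3.50, 185 and 38.1 TPM in the same order on day 18, becoming 27.7, 1342 and 772 TPM by day 22. In TPM both were nearer to the cool value on day 18 and nearer to the warm value on day 22. On the log2(TPM + 1) scale both were nearer to the warm value on both days. Both were named for the lowest differences of recovery minus 26 °C on day 18, so a smaller gap on day 22 can follow from that choice. The 37 genes that were 2-fold under 26 °C on day 18 had medians of 306 TPM at 26 °C and 131 TPM in recovery on that day. On day 22 these were 501 and 341 TPM, and 6 of the genes were still 2-fold lower. They were picked for a low recovery value against 26 °C on day 18. A smaller gap on day 22 can follow from that choice alone, so these values are a description.

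Genes that were lower at 26 °C could lie above their warm value in recovery. Bo2g120860 had 225 TPM in the cool, 71.7 TPM in the warm and 198 TPM in recovery on day 18, and the day 22 values were 201, 14.9 and 42.4 TPM. Bo3g081430 was at 89.8, 5.09 and 14.9 TPM on day 18, with 94.0, 1.16 and 1.73 TPM by day 22. Of the 15 genes that ended day 22 at 26 °C at least 2-fold below their earlier level, 13 were higher in recovery than at 26 °C on that day; they were picked for the low 26 °C value, so the count is a description. The lowest ratios of recovery to 26 °C on day 22 were those of Bo4g025460, at 7826 and 21713 TPM, and Bo4g013130, at 2464 and 5785 TPM.

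Summed over the 150 genes, the level at 16 °C was 0.13% of all TPM on day 0, and 0.75%, 4.42%, 7.23% and 13.3% on days 7, 15, 18 and 22. At 26 °C the sums of those last 4 days were 2.0%, 11.7%, 25.9% and 32.0%. Recovery embryos were at 16.1% on day 18 and 21.6% on day 22. The genes thus held about 1 in 3 transcripts of the warm embryo on day 22, by TPM. The 10 most abundant of the 150 held 17.0% of all TPM in that column and 7.84% at 16 °C. A sum in TPM is a share: a larger share for these genes leaves less for others without any difference in the amount of the others' RNA.

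**Figure D4:**
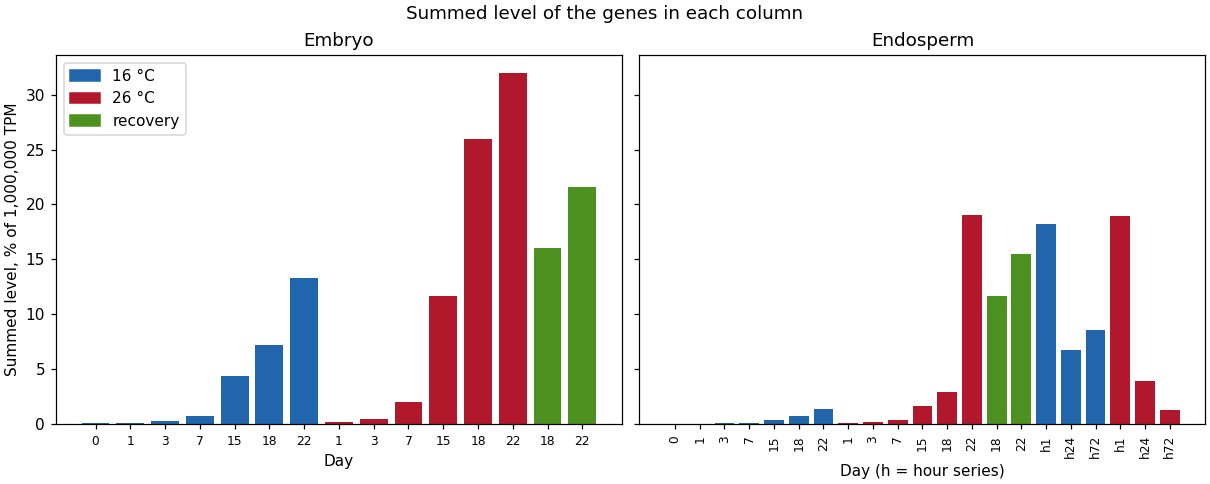
Summed TPM of the genes as percent of 1000000 in each column of embryo (left, 150 genes) and of the endosperm fraction (right, 147 genes); blue is 16 °C, red 26 °C and green recovery. The sum reaches 32.0% in embryo on day 22 at 26 °C, and in the hour series it is 18.2% and 18.9% at hour 1 and 1.29% at hour 72 at 26 °C.

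The same genes were looked up in the endosperm fraction, a tissue that the choice did not use. The endosperm table lists 147 of them; Bo2g120860, Bo3g036630 and Bo4g112560 are not in it. On days 0 to 3 at 16 °C their levels were low in both tissues, with a median of 0.49 TPM in the endosperm fraction and 0.72 TPM in embryo on day 0. From day 7 to day 22 at 16 °C, 110 of 147 were at least 2-fold higher (7.57% of all tested endosperm genes) and none lower (13.9%), with a median log2 difference of 2.51 against -0.32 over all tested genes. The medians on days 7, 15, 18 and 22 were 1.59, 5.09, 8.25 and 17.3 TPM, so the direction was that of the embryo at lower levels. On day 15 at 16 °C, 121 of the 147 were 2-fold higher in embryo and 5 in the endosperm fraction, where 16.6% and 27.3% of the 9726 genes in both tables were. On day 18 at 16 °C the numbers were 134 and 0, against 16.6% and 28.7% of the shared genes. Both days lie on the embryo rise that the choice used, so part of this excess can follow from the choice. The kits differed between the tissues and the tables were normalised apart. In the day 22 columns that the choice did not use, the excess was smaller. At 26 °C 68 were higher in embryo and 13 in the endosperm fraction (12.8% and 30.4% of the shared genes). In recovery the numbers were 61 and 15 (15.5% and 29.0%). On day 15 at 26 °C, a column that the choice did not use either, they were 132 and 3 (16.8% and 32.3%), so the excess was not smaller there. The day 22 column at 16 °C, with 133 and 0 (15.7% and 29.4%), chose the genes for high embryo levels and shows nothing further.

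Few of the genes differed between the early days in the endosperm fraction: from day 0 to day 3 at 16 °C, 15 were 2-fold higher (1.32% of all tested) and 1 lower (0.651%). From day 7 to day 15, 66 genes were 2-fold higher (2.46% of all tested) and 1 lower (5.64%), where 148 were higher in embryo. From day 15 to day 18, 42 were higher (1.01%) and 5 lower (1.35%), where 26 were higher in embryo, and from day 18 to day 22, 49 were higher (4.83%) and 5 lower (2.06%). At 26 °C the last step held the most genes: 96 were higher from day 7 to day 15 (6.13%) and 7 lower (17%), 50 from day 15 to day 18 (3.6%) and 8 lower (9.64%), and 120 from day 18 to day 22 (25.3%) and 5 lower (14.6%). The last 2 counts use the day 18 column labelled 26 °C, which stands in an unusual order, given further on.

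The excess of the embryo differed widely between genes. On day 18 at 16 °C the quartiles of the log2 difference of embryo minus endosperm fraction were 1.89 and 3.72, and on day 22 at 26 °C they were -0.09 and 1.96. On the first of these, Bo9g045410 was at 2948 TPM in embryo and 10.1 TPM in the endosperm fraction, while Bo9g022050 was at 2598 and 509 TPM. The 2 largest gains in the endosperm fraction from day 7 to day 22 were those of Bo6g119910, from 1.59 to 1003 TPM, and Bo01143s020, from 1.20 to 405 TPM. Bo3g081430 was higher in the endosperm fraction on the early days, at 13.1, 12.5 and 38.6 TPM in the endosperm fraction on days 0, 1 and 3 at 16 °C and at no more than 0.35 TPM in embryo. Its values there were 50.4 TPM on day 7 and 28.4 TPM on day 22. The part that embryo RNA in the dissected fraction may have in these values was not tested.

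Warmth went with higher levels of the genes in the endosperm fraction too. At 26 °C, 26 of 147 were 2-fold higher on day 1 (7.43% of all tested) and 1 lower (2.77%), 37 were higher on day 3 (9.79%) and 2 lower (3.7%), and 55 were higher on day 7 (11%) and none lower (3.74%). The median log2 difference on day 1 was 0.10, against 0.11 over all tested genes. Of the 147 genes, 88 reached 1 TPM in any column of days 0 to 3. On day 15, 106 were higher (12%) and 3 lower (8.94%), with a median log2 difference of 1.72 against 0.01 over all tested genes. On day 22, 130 were higher (25.9%) and 6 lower (19.4%), with a median of 3.41 against 0.11. Of the 105 listed genes that were 2-fold higher at 26 °C in embryo on day 15, 84 were so in the endosperm fraction. Of all 147 listed genes, 106 (72.1%) were higher there, so much of this overlap follows from that share. The same overlap over all genes in both tissues was not counted.

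The pair with a large warm excess in embryo on day 1 had one in the endosperm fraction as well. Bo3g044590 was at 118 TPM in the warm and 0.43 TPM in the cool in the endosperm fraction on day 1, with 240.5 and 0.83 TPM by day 3. For Bo1g039850 these values were 41.3 and 0.37 TPM, then 63.0 and 0.47 TPM. In the warm, both were higher on day 3 than on day 1 here, and lower in embryo. On day 22 Bo5g145530 was at 508 TPM in the warm and 1.68 TPM in the cool, and Bo4g187850 at 262 and 0.94 TPM. Lower at 26 °C on that day were Bo6g108830, at 53.4 against 397 TPM, and Bo8g095430, at 58.7 against 301 TPM.

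**Figure D5:**
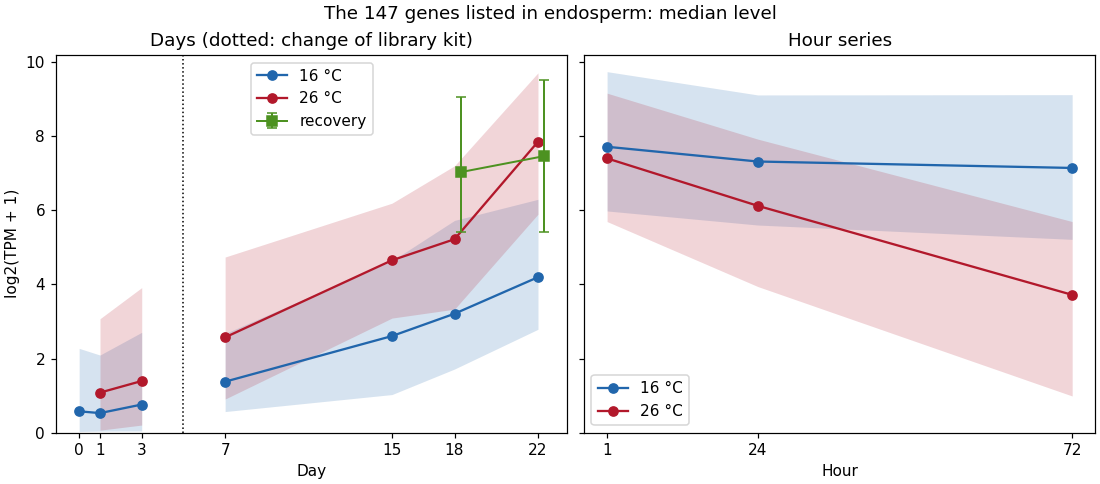
Median log2(TPM + 1) of the 147 genes in the endosperm fraction by day (left; the dotted line marks the change of library kit) and by hour (right), at 16 °C (blue), 26 °C (red) and in recovery (green); bands and bars span the quartiles over genes. The column labelled recovery lies above that labelled 26 °C on day 18, with medians of 130 and 36.3 TPM, and in the hour series the 26 °C median declines from 168 TPM at hour 1 to 12.2 TPM at hour 72.

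On day 18 the columns of the endosperm fraction labelled 26 °C and recovery stood in the opposite order to those of embryo. In the column labelled 26 °C, 105 of 147 genes were 2-fold higher than at 16 °C (11.5% of all tested) and 7 lower (12.1%). The column labelled recovery was at least 2-fold above the column labelled 26 °C in 115 genes (22.2%) and 2-fold below it in 1 (8.7%). By sign alone, 134 genes were above and 13 below. The median log2 difference was 1.99, against 0.22 over all tested genes. The summed level of the genes was 0.80% of TPM at 16 °C, 2.90% where the label is 26 °C and 11.7% where it is recovery. On day 22 it was 1.38%, 19.1% and 15.5% in the same order, and 5 genes were 2-fold higher in recovery than at 26 °C (3.43%) and 6 lower (2.2%). Against 16 °C, the column labelled recovery had 135 genes higher (27.3%) and 3 lower (17.6%) on day 18, and 130 higher (21.6%) and 4 lower (17%) on day 22. Whether the labels of the day 18 columns correspond to the treatments was not tested. Bo5g145530 was at 0.37, 5.94 and 244 TPM on day 18 at 16 °C, 26 °C and recovery as labelled, and at 1.68, 508 and 304 TPM on day 22.

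In the hour series of the endosperm fraction the genes began high. At hour 1 their median was 209 TPM in the cool and 168 TPM in the warm, and their sum 18.2% and 18.9% of TPM, close to the 19.1% of day 22 at 26 °C. The kit differs between these columns, and the labels do not relate hours to days. At 16 °C the median was 158 TPM at hour 24 and 140.3 TPM at hour 72. At 26 °C it was 68.6 TPM and 12.2 TPM. From hour 1 to hour 24 at 16 °C, 17 genes were 2-fold higher (21.8% of all tested) and 57 lower (15%), and from hour 24 to hour 72 22 were higher (13.2%) and 26 lower (7.58%). At 26 °C the first step had 13 higher (27.5%) and 100 lower (16%), and the second 2 higher (25.1%) and 117 lower (23.4%). From hour 1 to hour 72, 65 of 147 genes were 2-fold lower at 16 °C (19.8% of all tested) and 21 higher (29%), while at 26 °C 121 were lower (24.5%) and 4 higher (38%).

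Set against 16 °C at the same hour, the warm endosperm fraction thus had lower levels of these genes. At hour 1, 9 were 2-fold higher at 26 °C (11.2% of all tested) and 21 lower (8.89%), with a median log2 difference of -0.29 against 0.05. At hour 24, 3 were higher (16.8%) and 76 lower (7.12%), with a median of -1.03 against 0.12. At hour 72, 2 were higher (22%) and 131 lower (13.1%), with a median of -3.05 against 0.15, and 143 of 147 were below 0. This is the reverse of the direction of the medians on days 3 to 22 in the same tissue, with day 18 taken by label. On day 1 the median there was 0.10, against 0.11 over all tested genes.

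Single genes show the course. Bo8g090780 was at 3582, 140 and 366 TPM at hours 1, 24 and 72 at 16 °C, and at 4928, 83.8 and 7.70 TPM at 26 °C. Bo5g145530 was at 1084, 88.4 and 491 TPM at 16 °C, and at 1417, 45.8 and 1.84 TPM at 26 °C. Both were lower at hour 24 at either temperature, and only at 16 °C were they higher again at hour 72. Bo4g191670 was at 840, 469 and 603 TPM at 16 °C and at 523, 89.8 and 4.27 TPM at 26 °C. Bo1g050780 differed already at hour 1, at 926 TPM in the cool against 54.7 TPM in the warm, and was down to 4.71 and 0.28 TPM at hour 72. The gene is thus low at 72 hours at both temperatures.

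A few of the genes had other courses in the hour series, and the first 2 given here were 2-fold higher at 26 °C at hour 72. Bo5g098790 was at 1794, 399 and 1795 TPM at hours 1, 24 and 72 at 26 °C, against 1080, 520 and 356 TPM at 16 °C, and was the most abundant of the 147 genes in the last 26 °C column. Bo3g081430, the gene that stayed low in the warm embryo, was at 0.026, 9.46 and 52.7 TPM at 26 °C and at 0, 0.245 and 2.63 TPM at 16 °C. Bo8g105070 was highest at hour 24, at 3758 TPM in the cool and 3662 TPM in the warm, after 1034 and 75.9 TPM at hour 1 and before 1869 and 307 TPM at hour 72. Bo9g045410, at 2997 TPM in embryo on day 22 at 16 °C, was at no more than 0.065 TPM in any hour column.

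The next 150 genes in the same order, with log2 differences of 2.96 to 4.30 between days 22 and 0, were used to see whether the temperature difference stops at the limit. At 26 °C 64 of them were 2-fold higher on day 7 and 1 lower, 72 and 15 on day 15, and 88 and 13 on day 18. The corresponding numbers among the 150 genes described here were 93 and 4, 106 and 6, and 110 and 4. The next genes thus lay on the same side with smaller numbers, and the difference between the lists was not tested.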

How the data were processed

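The authors deposited TPM values, 1 column per group, in 2 tables (embryo and endosperm fraction) that they name as tables of differentially expressed genes; how those genes were picked is not stated here. No count was available. Listed genes sum to between 47.0% and 76.7% of 1000000 TPM per column. Reads had passed through cutadapt 1.9.1, STAR 2.5 and featureCounts, per the submitters' processing notes; no source used here gives the build, annotation, strand setting or how libraries were combined. TPM keeps no depth, so no counting error is given.

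The 150 genes and the lists were chosen with earlier results of these data known. Values were compared as log2(TPM + 1) with Python 3.11.15, pandas 2.3.3 and numpy 2.4.6. Higher and lower mean a difference of at least 2-fold. This scale understates the change of low genes. The share of all genes at 1 TPM or more in any column of the set is given beside most counts of 2-fold differences. Comparisons of the tissues give the share of the genes in both tables instead. Some counts, among them those past the midpoint and those under other settings, have no share. A limma test was planned only for values per library and was not run, so no p-value is given. Named genes are, per comparison, the 2 highest and 2 lowest differences at 5 TPM or more, the 2 largest gains, the 2 most abundant of each mid-rise group and the 2 on each side of the limit. Not all of these are printed, and Bo1g107090, Bo6g050850, Bo6g050860, Bo3g036630, Bo4g112560 and genes followed into other columns were chosen after their values were seen. Steps between neighbouring columns, the next 150 genes and the comparison of maxima with its shares over all genes were added after the data were examined. Calculations were tested on simulated data. The product-name lists and marker genes planned could not be looked up.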

Additional observations from a re-analysis of the deposited data

Results flagged for a closer look

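These contrasts pointed in opposite directions in 2 tissues or 2 sampling series. Each group has 1 column, so the difference between them was not tested. For recovery minus 26 °C on day 18, the median log2 difference of the genes was -0.63 in embryo and 1.99 in the endosperm fraction. For 26 °C minus 16 °C in the endosperm fraction, the median was 0.10 on day 1 and -1.03 at hour 24. It was 0.21 on day 3 and -3.05 at hour 72. The labels do not relate hours to days, so these are not known to be matched times. At 16 °C the median level of the genes was 0.44 TPM on day 1 and 158 TPM at hour 24. On day 1 the median over all tested endosperm genes was 0.11, so the genes described here did not stand apart there by their median.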

How the results depend on the processing

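No paired analysis was possible because each table holds 1 column per group and no column carries a replicate number; for the same reason no replicate could be left out. Of 147 alternative values of the main results, 121 stayed within 1.5 times the reported count and 26 did not. With a pseudocount of 0.1 TPM, which gives low genes more weight, the numbers of genes 2-fold apart between temperatures were 64 in embryo on day 1, and 46, 64 and 87 in the endosperm fraction on days 1, 3 and 7, the last split 70 higher and 17 lower. A 3-fold threshold counts fewer genes by construction: between temperatures in embryo 22, 25 and 61 on days 1, 3 and 7, and in the endosperm fraction 17 and 22 on days 1 and 3, 17 at hour 1 and 52 at hour 24. Recovery at 3-fold gave 8 and 0 genes against 26 °C in embryo on days 18 and 22, 41 against 16 °C on day 22, and 4 against 26 °C in the endosperm fraction on day 22. In embryo on day 22 the split of recovery against 26 °C was 4 higher and 4 lower after rescaling without the 10 most abundant genes, and in the endosperm fraction at hour 1 that of 26 °C against 16 °C was 6 higher and 27 lower after median centring. With the midpoint on the linear TPM scale the mid-rise groups held 0, 21, 49 and 80 genes, and 1, 1 and 9 genes were past it at 26 °C on days 1, 3 and 7. The groups between days 15 and 18 and after day 18 held 7 and 3 genes after median centring, and 3 and 2 with a pseudocount of 0.1 TPM. The median difference between temperatures in embryo stayed above 0 on all 6 days under every alternative run, and in the endosperm fraction on day 1 it ranged from -0.03 to 0.61. With a pseudocount of 0.1 TPM the rule itself would share 114 of the 150 genes.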
